A study of Mus musculus with 10 samples.

Results

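The melanopsin signalling genes are 8 genes of the light response of melanopsin retinal ganglion cells (RGCs), and they were chosen by symbol from the 34254 genes counted in each scRNA-seq file. They are the receptor Opn4, the G protein alpha subunits Gnaq, Gna11 and Gna14, the phospholipase Plcb4, the cation channels Trpc6 and Trpc7, and the neuropeptide precursor Adcyap1, and all 8 were found in every file. The RGCs came from wild-type 129S1/SvImJ mice at 12 weeks of age, of both sexes by the study's methods, with 10 retinas pooled per batch. These cells were profiled in 6 libraries from uninjured retinas (1683 cells) and 4 libraries from retinas 2 weeks after optic nerve crush (1609 cell barcodes). Optic nerve crush (ONC) is a lesion of RGC axons behind the eye. Cells were enriched by immunopanning on Thy1, a surface protein of RGCs, after macrophages had been removed. The sources differ on this step, since the study's methods add a removal of amacrine cells and the series design names a sort by FACS. The injured group holds only RGCs still alive 2 weeks after the lesion. In whole samples, 3 of the 8 genes (Adcyap1, Gna14 and Gnaq) were higher after ONC, where 21.3% of all genes tested were called higher. The call of Gnaq was lost in 17 of 27 alternative settings, with log2 fold changes of 0.25 to 0.46 against 0.42 as given. The change of Gna14 differed between cells above and below a cut of 1 Opn4 UMI per 10000, with its UMIs almost all in cells above the cut in uninjured RGCs and also in cells below it after ONC, some of which held an Opn4 UMI.

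Melanopsin, the protein of Opn4, is a light-absorbing receptor that makes a small class of RGCs sensitive to light without input from rods and cones. In these cells light acts through G proteins of the Gq family (the subunits encoded by Gnaq, Gna11 and Gna14), which switch on phospholipase C beta 4 (Plcb4). This enzyme splits a membrane lipid, and the products open channels formed by Trpc6 and Trpc7, which depolarise the cell. Many of the same cells release PACAP, the peptide made from Adcyap1, from axons that reach the brain centres for the body clock and for the size of the pupil. Eomes, a T-box transcription factor, is needed for the formation and upkeep of melanopsin RGCs.

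Injured 3 and injured 4 shared 421 cell barcodes, against at most 1 in any other pair of libraries, so their mean stood for a single sample (injured 3/4) and the comparisons ran over 6 uninjured against 3 injured samples. Nothing in the sources says that libraries of a group came from separate batches of mice, so p-values measure the spread between these samples. The libraries held 2839693 to 23180399 UMIs (tags that each mark 1 captured RNA molecule) in uninjured RGCs and 4698799 to 8860536 in injured RGCs. The median depth of a cell was 20437 to 34337 UMIs in uninjured and 11257 to 14695 in injured libraries. Malat1, a nuclear RNA, took 1.72 to 4.88% of UMIs in uninjured and 6.09 to 8.01% in injured libraries. Uninjured libraries resembled each other in pairs, since Malat1 took 4.86 and 4.88% in libraries 1 and 2, 3.03 and 3.36% in libraries 3 and 4, and 1.72 and 1.83% in libraries 5 and 6. Each library of a pair was counted as a separate sample in the main tests. If a pair shares animals or a batch, which the sources do not say, the p-values are too small. The female RNA Xist marked 62.1 and 67.4% of cells in injured 1 and 2, and no more than 0.57% elsewhere. Female cells were thus seen almost only in injured 1 and 2, although the study names mice of both sexes. Sex and ONC cannot be told apart in those 2 libraries. UMIs of the reporter mCherry were found in no uninjured cell and in most cells of injured 3 and 4, so the reporter and ONC cannot be told apart in those libraries. They were also found in 27 of 330 cells of injured 1 and 41 of 262 cells of injured 2 outside the Opn4 class described below. The summed level of 8 pan-RGC markers was 6080 to 7778 CPM (a gene's UMIs per 1000000 UMIs) in uninjured and 4122 to 5521 CPM in injured libraries. The summed level of 10 amacrine markers was 57.5 to 224 and 256 to 327 CPM, and that of 8 Mueller glia markers 205 to 285 and 311 to 479 CPM. That of 9 rod and cone markers was 4.42 to 20.6 and 10.1 to 31.3 CPM. The genes of a list did not move alike. C1ql2, an amacrine marker, was 7.06 to 30.1 CPM in uninjured and 173 to 218 CPM in injured libraries. Of the 8 amacrine markers tested, 2 were higher and 0 lower after ONC, with a median log2 fold change of -0.43. Pde6b, of the rod and cone list, was 0 to 0.53 and 8.42 to 11.3 CPM. Of the 7 Mueller glia markers tested, 4 were higher and 2 lower. The part of depth, Malat1, sex and the markers of other cells in the results below was not tested, other than by the alternatives named there.

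The first comparison asked whether the 8 genes changed in whole RGC samples after ONC, with UMIs summed over all cells of a sample. Of the 14234 genes tested with edgeR's quasi-likelihood test, 43.8% were called at an adjusted p of 0.05, 21.3% higher and 22.5% lower after ONC. Of the 8 genes, 3 were called, all higher. Groups did not overlap for 42.9% of all genes tested, and did not overlap for Adcyap1 and Gnaq. In sums over a whole sample, fewer cells of a type and less RNA per cell cannot be told apart. The values below are CPM scaled with TMM factors, and each log2 fold change is injured minus uninjured.

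Opn4 lies at chr14:34312575-34322099 on the reverse strand (mm39). Its level in uninjured samples was 16.3 CPM at the lowest, 29.6 CPM at the median and 60.7 CPM at the highest, and the injured samples stood at 17.0, 29.0 and 21.5 CPM. The injured samples lay inside the uninjured range, and uninjured 1 and 2, at 60.7 and 41.2 CPM, were above all others. The means were 32.9 ± 16.2 CPM (SD, n = 6) in uninjured and 22.5 ± 6.05 CPM (SD, n = 3) in injured samples, a log2 fold change of -0.52 (SE 0.37, adjusted p = 0.276 with edgeR). An exact two-sided permutation test over the 9 samples gave p = 0.381 for the same gene. Set against uninjured 1 and 2 the difference in mean log2 level was -1.15, and it was -0.05 against uninjured 3 and 4 and -0.10 against uninjured 5 and 6.

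Among the G protein subunits, Gnaq and Gna14 are neighbours on chromosome 19 and Gna11 lies elsewhere. Gnaq occupies chr19:16110027-16365882 on the forward strand, and Gna14 follows 47098 bases downstream, at chr19:16412981-16588184 on the same strand, with 0 protein-coding genes between them. Gna11 lies at chr10:81364558-81381060 on the reverse strand (all mm39). Of the genes that overlap Gnaq, 1 is on its strand and 4 are on the other. Gnaq, the most widely expressed alpha subunit of the family, ranged from 133 to 205 CPM in uninjured samples (median 183) and was 232, 244 and 225 CPM in the injured samples. All 3 injured samples were above all 6 uninjured samples, and uninjured 5 and 6, at 145 and 133 CPM, were the lowest. Gnaq rose from 175 ± 29.5 to 233 ± 9.31 CPM, a log2 fold change of 0.42 (SE 0.16, adjusted p = 0.0492), with an exact permutation p = 0.0238, the smallest that 6 against 3 samples can give. Its call stood close to the threshold. It was lost in 17 of 27 alternative settings, with adjusted p up to 0.245 and log2 fold changes of 0.25 to 0.46. Among them was each fit without uninjured 1, 2, 5 or 6 or injured 1, 2 or 3. The highest adjusted p came with similar libraries summed (log2 fold change 0.40).

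Gna14 was low in uninjured samples, from 1.59 to 16.5 CPM with a median of 5.11 CPM, and reached 23.5, 27.2 and 15.3 CPM in the injured samples. Injured 1 and 2 exceeded every uninjured sample, whereas injured 3/4 stood just below uninjured 1. The means were 6.70 ± 5.44 and 22.0 ± 6.09 CPM, and Gna14 rose by a log2 fold change of 1.84 (SE 0.49, adjusted p = 0.00965, exact permutation p = 0.0476). Against the uninjured pairs 1 and 2, 3 and 4, and 5 and 6 the difference in mean log2 level was 0.78, 1.99 and 2.69. The 2 settings that ended the call were cells with at least 1% of UMIs from ribosomal protein genes (log2 fold change 1.41, adjusted p = 0.0571) and cells without Xist UMIs (log2 fold change 1.85, adjusted p = 0.0515), and Gna14 was not tested where at least 10 counts in every library were asked for. Gna11, which couples to many of the same receptors as Gnaq, ranged from 82.3 to 129 CPM in uninjured samples (median 99.4) and was 71.0, 80.9 and 120 CPM in injured samples. The groups overlapped, the log2 fold change was -0.19 (SE 0.20, adjusted p = 0.461), and the exact permutation p was 0.310.

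Plcb4 lies at chr2:135500926-135856870 on the forward strand (mm39), and 2 gene models on its strand and 5 on the other overlap it. Its level ran from 251 to 376 CPM in uninjured samples (median 338) and was 405, 410 and 334 CPM in injured samples. Injured 1 and 2 were above every uninjured sample and injured 3/4 was inside the uninjured range. The means were 321 ± 54.1 and 383 ± 42.2 CPM, with a log2 fold change of 0.25 (SE 0.17, adjusted p = 0.247, exact permutation p = 0.119).

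Of the channel genes, Trpc6 lies at chr9:8492905-8682359 on the forward strand and Trpc7 at chr13:56920921-57043806 on the reverse strand. Trpc6 ranged from 15.9 to 53.6 CPM in uninjured samples (median 35.6) and was 23.0, 19.6 and 22.9 CPM in injured samples. The injured samples were nearly equal, below uninjured 1 to 4 and above uninjured 5 and 6. The means were 34.1 ± 14.7 and 21.8 ± 1.96 CPM, a log2 fold change of -0.63 (SE 0.34, adjusted p = 0.153, exact permutation p = 0.238). The difference in mean log2 level of Trpc6 was -1.14, -0.69 and 0.33 against the 3 uninjured pairs in turn, so the sign of this difference depended on the uninjured libraries used. Trpc6 was called lower in 4 of 27 alternative settings. These were without uninjured 6 (log2 fold change -0.77, adjusted p = 0.0375) and with limma-voom (-0.75, adjusted p = 0.00574). The others took libraries 1 to 4 alone as separate samples (-0.92, adjusted p = 0.00014) or with a replicate block (-0.93, adjusted p = 0.000968). Both fits over libraries 1 to 4 counted injured 3 and 4, which share 421 cell barcodes, as separate samples. They also left out uninjured 5 and 6, the lowest uninjured samples for Trpc6 (18.6 and 15.9 CPM). Trpc7 ran from 6.07 to 25.9 CPM in uninjured samples (median 11.8) and was 4.38, 12.4 and 7.64 CPM in injured samples. The groups overlapped, the means were 13.5 ± 7.06 and 8.13 ± 4.01 CPM, and the log2 fold change was -0.72 (SE 0.43, adjusted p = 0.195, exact permutation p = 0.238). Against the uninjured pairs the difference of Trpc7 was -1.19, -0.73 and 0.02. Of 27 alternative settings 4 called Trpc7 lower. These were limma-voom (-0.93, adjusted p = 0.0455) and cells without Xist UMIs (-1.40, adjusted p = 0.0424). The others were libraries 1 to 4 alone as separate samples (-1.01, adjusted p = 0.0203) or with a replicate block (-1.01, adjusted p = 0.0430). Those fits again counted injured 3 and 4 as separate samples and left out uninjured 5 and 6 (6.07 and 9.06 CPM). In cells with 3 to 5% Malat1 UMIs the log2 fold change of Trpc7 changed sign (0.89, adjusted p = 0.319).

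Adcyap1 lies at chr17:93506397-93515189 on the forward strand. It ranged from 27.4 to 72.1 CPM in uninjured samples (median 46.0) and reached 75.9, 117 and 118 CPM in injured samples. Every injured sample was above every uninjured sample, although injured 1 exceeded uninjured 1 only by a small margin. Adcyap1 rose from 47.1 ± 14.7 to 104 ± 23.9 CPM, a log2 fold change of 1.15 (SE 0.25, adjusted p = 0.00251), with an exact permutation p = 0.0238. The difference in mean log2 level was 0.74, 1.57 and 1.13 against the 3 uninjured pairs, and the call held in all 27 alternatives, with log2 fold changes of 1.05 to 2.05.

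**Figure D1:**
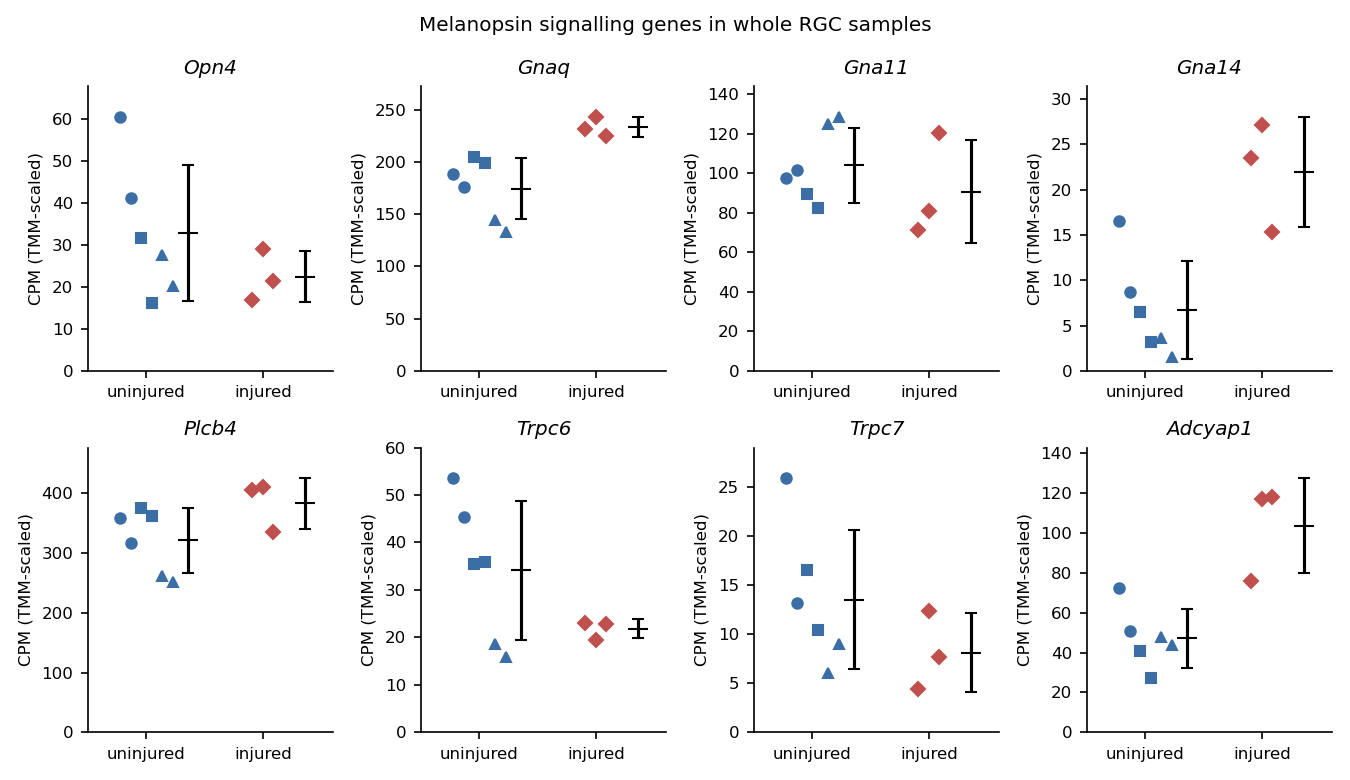
Level of each melanopsin signalling gene (TMM-scaled CPM, linear axis from 0) in 6 uninjured samples (blue, with circles for libraries 1 and 2, squares for 3 and 4, and triangles for 5 and 6) and 3 injured samples (red diamonds); bars give the mean and SD. The injured samples of Adcyap1 (75.9 to 118 CPM) and Gnaq (225 to 244 CPM) lie above all uninjured samples, whereas the groups overlap for the other 6 genes.

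The second comparison asked where the genes are expressed among RGCs. Cells with at least 1 Opn4 UMI per 10000 UMIs were called Opn4 cells and set against all other cells of the same sample. There were 9, 6, 14, 12, 10 and 6 Opn4 cells in uninjured 1 to 6, 57 in all, and 8, 11, 24 and 23 in injured 1 to 4, 66 in all. Of the cells shared by injured 3 and 4, 17 were Opn4 cells in both and 7 changed class between the libraries. The Opn4 level of a cell in this class had a median of 6.32 UMIs per 10000 in uninjured and 3.61 in injured cells. The cut passed through few uninjured cells, with 6 cells at 0.5 to 1 and 7 at 1 to 2 UMIs per 10000, but through more injured cells, with 41 and 12. The class showed the markers of melanopsin RGCs, since Eomes was 459 ± 159 CPM in uninjured Opn4 cells and 7.15 ± 2.01 CPM in other cells, and 8 of the 9 tested genes of a list of melanopsin RGC markers were higher in Opn4 cells in each condition. Spon1, the exception in that list, was lower, and so was Pou4f1, a transcription factor of most other RGCs (24.9 ± 29.1 against 301 ± 54.9 CPM). Levels by class were scaled apart from those of whole samples and should be compared only within a class table. Opn4 itself was fixed by the cut and is given with no test. Median depth was 30082 UMIs in Opn4 cells and 27684 in other cells of uninjured samples, and 13299 and 13545 UMIs in injured samples. Malat1 took a median 2.27 and 2.83% of a cell's UMIs in the uninjured classes and 3.30 and 7.65% in the injured ones. The amacrine markers summed to 56.0 to 363 CPM in Opn4 cells and 53.6 to 221 CPM in other cells of uninjured samples. In injured samples they summed to 26.5 to 111 and 274 to 333 CPM. Of these markers, C1ql2 was 15.7 CPM in injured Opn4 cells and 203 CPM in injured other cells below 1 Gna14 UMI per 10000. UMIs of at least 3 markers of another retinal class were held by 43 of 57 Opn4 cells and 712 of 1626 other cells in uninjured samples, and by 19 of 66 and 393 of 1543 in injured samples. The part of these differences in the class comparison was not tested.

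In uninjured samples, 5 of the 7 other genes were higher in Opn4 cells. Of all 12204 genes tested by class, 18.3% were called in uninjured samples, 9.14% higher and 9.15% lower, and 19.2% moved in the same direction in every uninjured sample. In injured samples 4 of the 7 were higher, against 13.6% of all genes called, 6.40% of them higher and 7.19% lower. Adcyap1, Trpc6, Trpc7, Gnaq and Gna14 were higher in Opn4 cells in 9 of 9 samples. For each of them an exact two-sided sign-flip test over the samples gave p = 0.0039, the smallest that 9 samples can give. This test counts each library of the uninjured pairs as a separate sample. Gna11 was higher in 6 of 9 samples (exact sign-flip p = 0.934) and Plcb4 in 7 of 9 (exact sign-flip p = 0.0625).

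Gna14 had the largest fitted log2 fold change of the 7 genes between Opn4 cells and other cells in uninjured RGCs, against other cells that held no Gna14 UMI in 4 of 6 samples. Its level in the Opn4 cells of uninjured samples was 39.9 CPM at the lowest, 155 CPM at the median and 174 CPM at the highest. In the other cells it was at 0 UMIs in uninjured 1, 2, 5 and 6, and at 6 and 9 UMIs (0.49 and 0.40 CPM) in uninjured 3 and 4. The fitted log2 fold change was 8.80 (SE 0.32, adjusted p = 4.70e-19), a value that depends on the prior count because most samples of the lower class hold no UMI. In injured samples the Opn4 cells stood at 54.8, 179 and 90.4 CPM and the other cells at 23.9, 20.5 and 11.9 CPM. The classes did not overlap there either, but the log2 fold change was 2.62 (SE 0.32, adjusted p = 3.97e-07).

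Trpc7 ran from 66.5 to 408 CPM in uninjured Opn4 cells (median 235), and from 1.19 to 3.36 CPM in the other cells. In injured samples it was 102, 197 and 127 CPM in Opn4 cells and 2.26, 3.20 and 1.74 CPM in other cells. No sample of 1 class reached the other class, and the log2 fold change was 6.73 (SE 0.26, adjusted p = 5.15e-14) in uninjured and 5.90 (SE 0.39, adjusted p = 1.15e-09) in injured samples. Trpc6 was spread more widely, at 33.3 to 198 CPM in uninjured Opn4 cells and 14.8 to 45.4 CPM in other cells. The log2 fold change of Trpc6 was 1.81 (SE 0.23, adjusted p = 5.31e-06) in uninjured and 1.91 (SE 0.38, adjusted p = 0.00117) in injured samples, where it was 47.0, 56.4 and 110 CPM against 23.5, 18.5 and 19.3 CPM. With injured 3 and 4 left out the injured call of Trpc6 was lost (adjusted p = 0.115).

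Adcyap1 was 216 to 521 CPM in uninjured Opn4 cells (median 410) and 22.4 to 36.3 CPM in other cells, a log2 fold change of 3.76 (SE 0.27, adjusted p = 3.27e-06). In injured samples it was 383, 662 and 381 CPM in Opn4 cells and 72.3, 93.4 and 108 CPM in other cells, a log2 fold change of 2.35 (SE 0.36, adjusted p = 0.00144). The Opn4 cells of both conditions overlapped, and the other cells of every injured sample were above those of every uninjured sample. Gnaq was found in both classes, at 166 to 383 CPM in uninjured Opn4 cells and 129 to 209 CPM in other cells. Its log2 fold change was 0.54 (SE 0.13, adjusted p = 0.00279) in uninjured samples and 0.39 (SE 0.19, adjusted p = 0.183) in injured samples. Without uninjured 3 the adjusted p of Gnaq in uninjured samples was 0.0525. Gna11 differed by a log2 fold change of 0.08 (SE 0.19) in uninjured and 0.07 (SE 0.29) in injured samples. Plcb4 differed by 0.25 (SE 0.15) and 0.53 (SE 0.20), and none of these values passed the threshold as given. In injured samples a cut of 2 Opn4 UMIs per 10000 called Plcb4 (0.64, adjusted p = 0.0145) and Gnaq (0.54, adjusted p = 0.0396) higher. Cells without markers of another class did so too (adjusted p = 0.0423 and 0.0363). Plcb4 was also called without uninjured 1, uninjured 2 or injured 3 (adjusted p = 0.0443 to 0.0494).

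**Figure D2:**
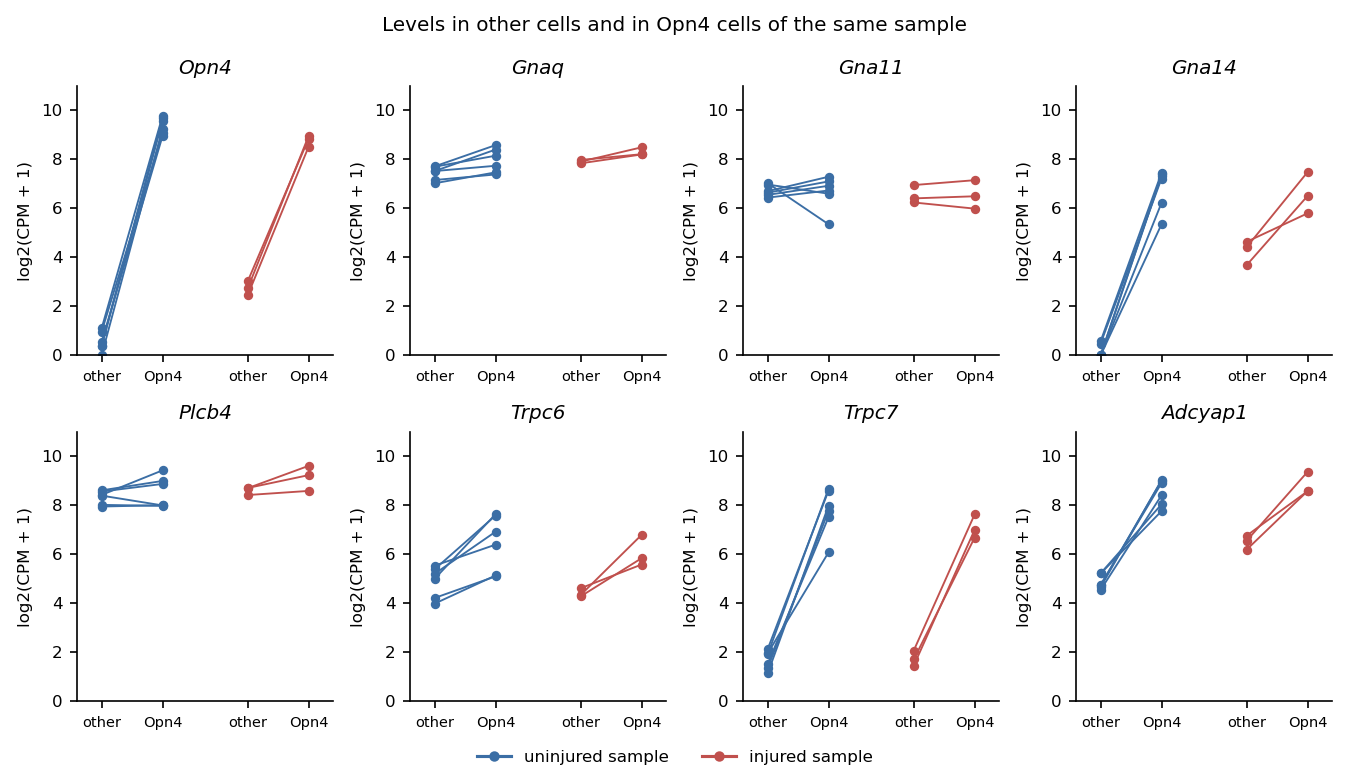
Level of each gene, as log2(CPM + 1), in other cells and in Opn4 cells of the same sample, joined by a line, for 6 uninjured samples (blue) and 3 injured samples (red). Gna14 starts at 0 to 0.49 CPM in the other cells of uninjured samples and at 11.9 to 23.9 CPM in those of injured samples, while Gna11 and Plcb4 have lines of mixed slope in uninjured samples.

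Within the Opn4 cells, 49 of 57 uninjured cells held a Trpc7 UMI, 48 an Adcyap1 UMI and 44 a Gna14 UMI. Trpc6 was found in 43 of them, each of which also held Trpc7. Plcb4 was found in all 57, Gnaq in 56 and Gna11 in 51, and every Opn4 cell of both conditions held at least 1 UMI of Gnaq, Gna11 or Gna14. UMIs of Gna14, Trpc7, Adcyap1, Gnaq and Plcb4 were found together in 42 of the 57 cells (73.7%). In injured Opn4 cells, which are shallower (median 13299 against 30082 UMIs), the counts were 37 of 66 for Trpc7, 54 for Adcyap1, 44 for Gna14, 32 for Trpc6 and 23 (34.8%) for the 5 genes together. These counts are given as found, at unequal depth and with shared cells counted in both libraries.

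The genes followed the level of Opn4 to different degrees when cells were grouped by it, as a description with UMIs summed over cells of a condition. In uninjured RGCs Gna14 was 0.30 CPM in the 1602 cells without an Opn4 UMI, 91.9 CPM in the 21 cells with 1 to 5 Opn4 UMIs per 10000 and 162 CPM in the 36 cells with more. Trpc7 was 2.38, 126 and 372 CPM and Adcyap1 26.1, 140 and 533 CPM in the same groups of cells. Trpc6 was 31.8, 65.4 and 158 CPM, whereas Gnaq (190, 265 and 291 CPM) and Gna11 (96.6, 96.6 and 119 CPM) differed less between these groups. In injured RGCs Trpc7 was 1.41, 155 and 136 CPM and Gna14 was 10.5, 86.7 and 169 CPM in the 1452, 43 and 23 cells of the same groups.

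The share of Opn4 cells was 9.18, 5.83, 3.86, 1.84, 3.75 and 2.99% in uninjured 1 to 6 and 2.37, 4.03 and 4.72% in the injured samples. The groups overlapped (4.57 ± 2.61 against 3.70 ± 1.21%, exact permutation p = 0.714), and the highest shares were those of uninjured 1 and 2. The sign of this difference was not stable, since it was -0.87 percentage points as given and 0.05 without uninjured 1. It was 1.10 in cells without markers of another class and 7.16 in cells with 3 to 5% Malat1 UMIs. With each cell thinned to 8000 UMIs it was 1.94, but there 1 Opn4 UMI puts a cell above the cut. That value compares the shares of thinned cells with any Opn4 UMI (4.64 and 6.59%), and not the same class. Cells with an Opn4 UMI below the cut made up 0 to 2.75% of uninjured samples and 7.10, 4.76 and 5.38% of injured samples, given as a description with no test. These were 24 uninjured and 91 injured cells. A single UMI lies below the cut only in cells above 10000 UMIs, so deeper cells can enter this share more readily. Injured libraries were the shallower ones, with medians of 11257 to 14695 UMIs per cell against 20437 to 34337 in uninjured libraries. The part of depth in this share was not tested. Eomes was at 114 CPM in the 24 uninjured cells of this kind and at 13.6 CPM in the 91 injured ones, and Trpc7 at 17.2 and 5.93 CPM. Gna14 had 0 UMIs in the uninjured ones and 49.9 CPM (143 UMIs) in the injured ones, beside 231 UMIs in the 1452 injured cells with 0 Opn4 UMIs.

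The injury change was then measured apart in each class. In Opn4 cells, where 1.72% of 5888 genes tested were called (0.985% higher and 0.730% lower), edgeR called 0 of the 7 genes, and DESeq2 called 0. With edgeR, 0 of the 7 were at an unadjusted p under 0.05, against 947 of all 5888 genes. The log2 fold changes in Opn4 cells were -0.19 (SE 0.39) for Gna14, 0.34 (SE 0.28) for Adcyap1, -0.53 (SE 0.58) for Trpc6, -0.78 (SE 0.45) for Trpc7, 0.32 (SE 0.27) for Gnaq, -0.04 (SE 0.32) for Gna11 and 0.59 (SE 0.33) for Plcb4. Each library gave 6 to 24 Opn4 cells, and a p that misses the threshold does not show that these genes were equal. Opn4 in these cells was 495 to 876 CPM in uninjured samples and 462, 498 and 367 CPM in injured samples, a description of what lies above the cut.

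In the other cells, where 44.4% of 14141 genes were called (21.5% higher and 22.9% lower), 3 of the 7 genes rose and none fell. Gna14 rose by a fitted log2 fold change of 5.98 (SE 0.47, adjusted p = 1.55e-06), from 0.15 ± 0.23 to 18.7 ± 6.18 CPM. Its other cells held no UMI in uninjured 1, 2, 5 and 6, and 6 and 9 UMIs in uninjured 3 and 4. The size of this fold, and of the class difference of Gna14 below, therefore depends on the prior count. Adcyap1 rose by 1.66 (SE 0.20, adjusted p = 4.30e-05), from 28.5 ± 6.18 to 91.1 ± 17.9 CPM. Gnaq rose by 0.44 (SE 0.16, adjusted p = 0.0391), from 176 ± 33.3 to 240 ± 11.5 CPM. This call was lost in 9 of 21 alternatives, with log2 fold changes of 0.27 to 0.48. The difference of the injury change between the classes was tested as an interaction, which called 6.70% of 12204 genes, 2.97% higher and 3.73% lower. Only Gna14 was called among the 7 genes, with a log2 difference of -6.18 (SE 0.46, adjusted p = 4.49e-10), which means a smaller change in Opn4 cells than in other cells. This call held in all 19 alternatives. For Adcyap1 the difference was -1.41 (SE 0.43, adjusted p = 0.0959), and 6 of 19 alternatives called it.

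**Figure D3:**
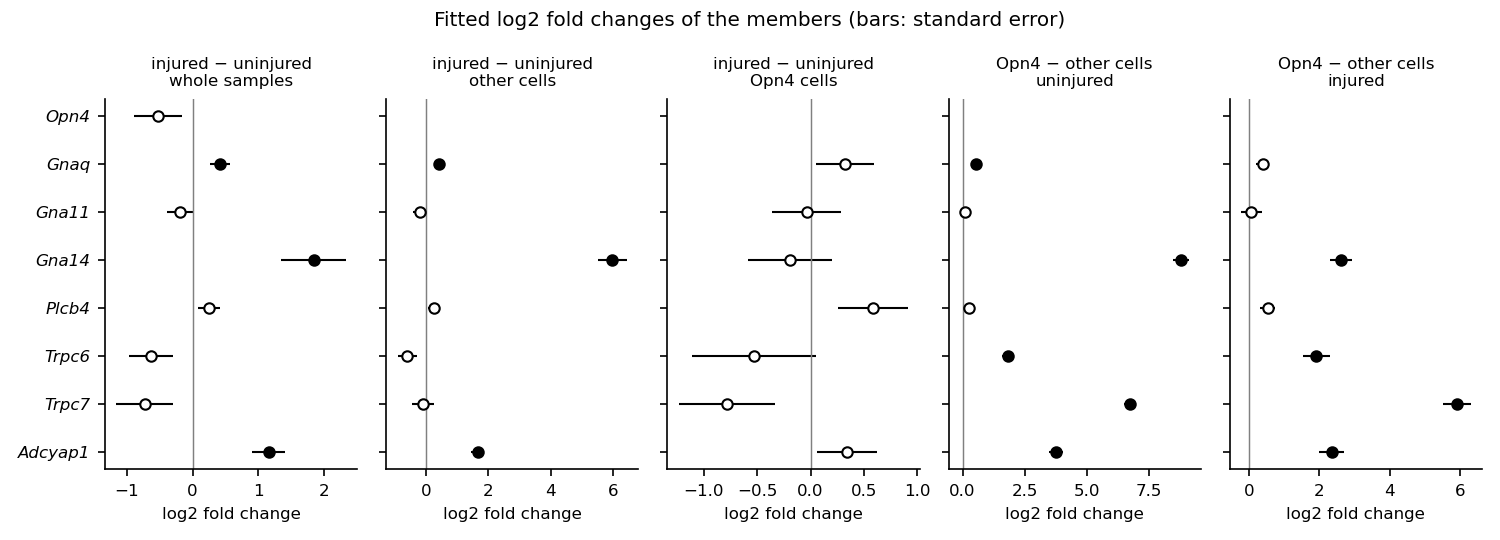
Fitted log2 fold changes (points) with standard errors (bars) for injured minus uninjured in whole samples, other cells and Opn4 cells, and for Opn4 minus other cells in uninjured and injured samples; filled points passed an adjusted p of 0.05, and axes differ between panels. Gna14 rose by 5.98 in other cells, a size that depends on the prior count, and its value in Opn4 cells was -0.19. Opn4 is shown for whole samples alone because the cut fixes it elsewhere.

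The Gna14 UMIs of injured cells outside the Opn4 class were concentrated in few cells. A level of at least 1 Gna14 UMI per 10000 was found in 0 of 1626 uninjured other cells and in 48 of 1543 injured other cells, 12, 9, 11 and 16 in injured 1 to 4, or 3.64, 3.44, 2.19 and 3.57% of the other cells. Of the 11 and 16 cells in injured 3 and 4, 8 barcodes were in both libraries. In uninjured libraries a count of 0 allows a share of up to 0.469% in uninjured 4 and up to 3.37% in uninjured 1, for counting error alone. These Gna14 cells held 83.2% of the Gna14 UMIs of injured other cells, with up to 43 UMIs in 1 cell. Of them, 5, 5, 1 and 3 in injured 1 to 4 held an Opn4 UMI below the cut. Their depth was high in injured 1 to 4, with medians of 25272, 26010, 21258 and 13964 UMIs against 14695, 14585, 14174 and 11297 UMIs for all other cells.

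**Figure D4:**
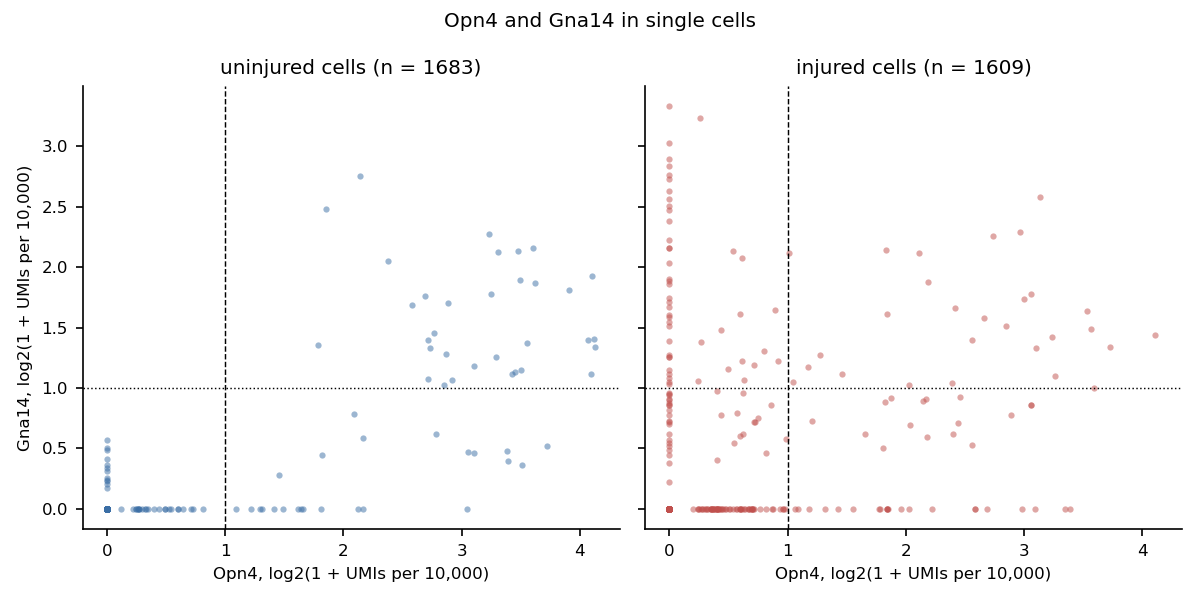
Opn4 (horizontal) and Gna14 (vertical) in single cells, as log2(1 + UMIs per 10000), for 1683 uninjured cells (left) and 1609 injured barcodes (right); the dashed and dotted lines mark 1 UMI per 10000. Uninjured cells above the dotted line all lie to the right of the dashed line, while in the injured panel 48 cells lie above the dotted line and left of the dashed line.

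What the Gna14 cells shared was described with no test, because the cells were chosen by their Gna14 level after these values had been seen. Eomes was 4.48 CPM in them and 2.46 CPM in the rest of the other cells, against 258 CPM in injured Opn4 cells. Trpc7 was 5.10 CPM against 2.06 CPM, and 150 CPM in Opn4 cells. Opn4 was higher than in the rest in 3 of 3 samples, at 21.8 against 4.27 CPM, and Adcyap1 in 3 of 3 at 119 against 82.3 CPM. Trpc6 was lower than in the rest in 3 of 3 samples, at 8.92 against 19.3 CPM. Gnaq (214 against 221 CPM), Gna11 (94.9 against 87.0 CPM) and Plcb4 (307 against 364 CPM) were not higher throughout. The list of melanopsin RGC markers summed to 420 to 544 CPM, between the rest (145 to 163 CPM) and Opn4 cells (1646 to 2145 CPM), with most of the excess in Chl1 (266 against 57.2 CPM) and in Spon1 (111 against 40.7 CPM), which is low in Opn4 cells.

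The genes below were picked from those with the largest ratio to the rest among genes of at least 100 CPM in the Gna14 cells. No fixed list of interferon targets was counted or tested, so the values describe single genes and not a gene group. Ifit1, an interferon target that binds foreign RNA, was 1209, 2415 and 195 CPM in the Gna14 cells of the 3 injured samples and 51.9, 56.6 and 21.9 CPM in the rest of the other cells. Rsad2, an antiviral enzyme, was 462, 1065 and 199 CPM against 9.68, 7.34 and 13.9 CPM. Isg15, a ubiquitin-like protein, was 258, 733 and 138 CPM against 9.14, 10.4 and 4.18 CPM. Ifit2, Bst2 and Iigp1 were also higher in 3 of 3 samples, and injured 2 was the highest and injured 3/4 the lowest for each of these genes. Ccl8, a chemokine, rested on 1 sample, with 571 CPM in injured 2, 28.7 CPM in injured 1 and 1.91 CPM in injured 3/4. Glis3, a zinc finger transcription factor, had another order, at 698, 282 and 720 CPM against 41.5, 28.9 and 12.6 CPM.

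Markers of other cells were read in the same Gna14 cells. The summed level of the pan-RGC markers was 6120 to 8341 CPM in the 3 samples, against 4011 to 5309 CPM in the rest, and of its 8 genes Slc17a6, Sncg, Tubb3, Thy1 and Nefl were higher than in the rest in 3 of 3 samples, whereas Rbpms (240 against 291 CPM) and Pou4f1 (78.3 against 103 CPM) were lower in 3 of 3. The sum over 8 Mueller glia markers was 441 to 1300 CPM against 317 to 427 CPM, most of it from Clu (713 against 237 CPM) and Glul (195 against 73.4 CPM), whereas Rlbp1, Slc1a3, Aqp4 and Apoe were at 3.50, 1.29, 0 and 0.64 CPM. The 7 microglia and macrophage markers summed to 1.91 to 81.0 CPM, against 7.88 to 15.2 CPM in the rest, most of it from Cx3cr1 (26.7 against 8.43 CPM, higher in 1 of 3 samples), with Csf1r at 1.92 against 0.46 CPM. C1qb and Aif1 were at 0 against 0.22 and 1.22 CPM, and C1qa and Tyrobp were at 0 in both. Of the Gna14 cells, 8, 4, 3 and 5 in injured 1 to 4 held UMIs of at least 3 markers of another retinal class, against 88 of 318, 76 of 253, 125 of 492 and 84 of 432 of the rest. mCherry UMIs were found in 0 of 12, 1 of 9, 7 of 11 and 10 of 16 Gna14 cells, against 8.49, 15.8, 86.0 and 84.5% of the rest. Xist marked 100% of the Gna14 cells of injured 2, against 65.6% of the rest, whereas in injured 1 the share was lower in the Gna14 cells than in the rest (63.2%). Malat1 took a median 2.36, 2.20, 3.36 and 3.77% of UMIs in the Gna14 cells of injured 1 to 4 and 7.57, 6.80, 8.33 and 8.24% in the rest. The amacrine markers summed to 65.6 to 439 CPM in the 3 samples, against 280 to 326 CPM. C1ql2 was 55.2 CPM in the Gna14 cells and 203 CPM in the rest, whereas Tfap2b was 63.8 against 18.7 CPM (higher in 1 of 3 samples). The part of depth, Malat1, sex, the glial and amacrine markers and the reporter in this pattern was not tested.

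**Figure D5:**
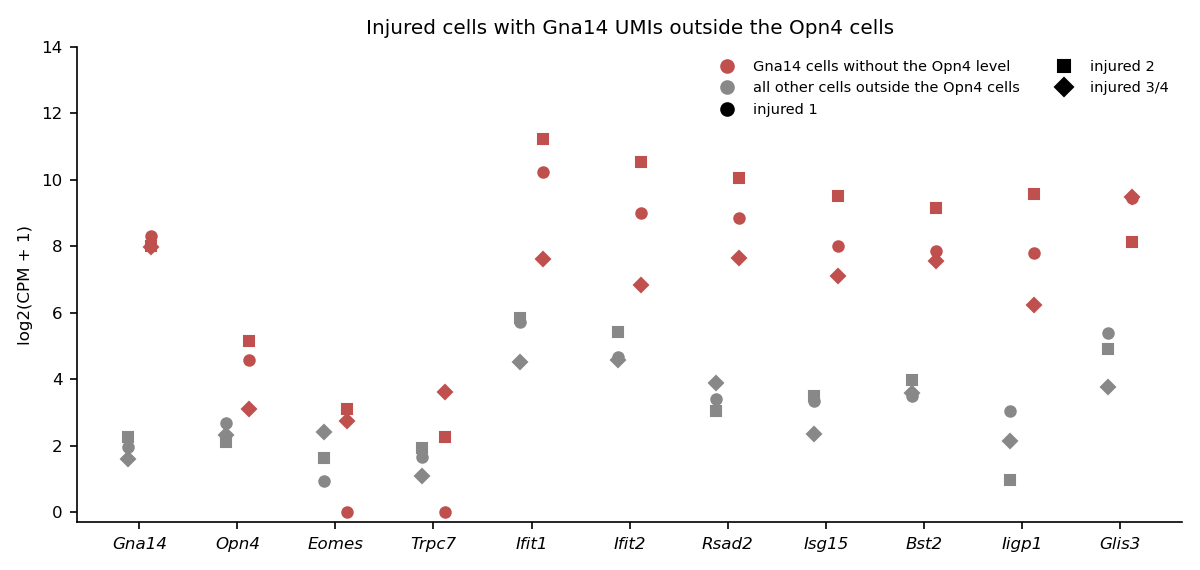
Level of 11 genes, as log2(CPM + 1), in injured Gna14 cells outside the Opn4 class (red) and in all other injured cells outside that class (grey), with 1 symbol per injured sample. The genes Ifit1, Ifit2, Rsad2, Isg15, Bst2 and Iigp1 and Glis3 were higher in the Gna14 cells of each sample, whereas Eomes and Trpc7 were at 0 in injured 1 and above the rest in the other 2 samples.

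The share of cells with a UMI was compared after each cell was thinned to 8000 UMIs, which left out 29 uninjured and 233 injured cells below that depth. For Adcyap1 the share was 22.3 ± 3.14% in uninjured and 35.6 ± 6.60% in injured RGCs, without overlap (29.1, 35.5 and 42.3% in the injured samples, exact permutation p = 0.0238). Gna14 was found in 2.59 ± 1.54 and 6.13 ± 1.63% (exact permutation p = 0.0476). This call was lost after thinning to 5000 UMIs and without each of uninjured 2 to 6 (exact permutation p = 0.0714 in each). In cells without markers of another class neither gene passed (exact permutation p = 0.0714 for Adcyap1 and 0.0952 for Gna14). Gna14 was found in the other cells alone in 0.22 ± 0.37 and 4.15 ± 0.47%, without overlap (exact permutation p = 0.0238). Shares of Opn4 (4.64 and 6.59%), Trpc6 (19.5 and 11.5%), Trpc7 (4.82 and 3.14%), Gnaq (72.0 and 80.0%), Gna11 (57.3 and 48.0%) and Plcb4 (83.3 and 89.4%) did not pass, with exact permutation p from 0.0952 to 0.405. Without thinning, at the unequal depths given above, Trpc6 (35.4 and 16.7%), Trpc7 (8.61 and 4.15%) and Gna11 (89.2 and 68.8%) were found in fewer injured cells and Opn4 (5.79 and 9.45%) in more, Gna14 in 4.02 and 8.06% (exact permutation p = 0.0714) and Adcyap1 in 46.3 and 46.2%.

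Other genes of the pathway were read from 7 lists that hold 68 genes and none of the 8. After ONC, 12 of the 63 tested genes were higher and 21 lower in whole samples. In uninjured samples 20 of 58 were higher and 9 lower in Opn4 cells, and in injured samples 9 were higher and 5 lower. The interaction called 5 in each direction. The test within Opn4 cells called 0 of 41 with edgeR. At an unadjusted p under 0.05 stood 9 of these 41, against 947 of all 5888 genes in the same test. These shares stand beside the backgrounds given above for all genes.

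Among 6 further genes of Gq subunits and phospholipases, 4 were tested after ONC, with 1 higher and 1 lower (median log2 fold change -0.16, against -0.03 for all genes). Plcb1, a phospholipase C beta of other signalling, fell from 327 ± 60.2 to 146 ± 31.3 CPM (log2 fold change -1.17, adjusted p = 0.000623), and it was also lower in uninjured Opn4 cells, at 71.2 against 352 CPM (log2 fold change -2.39, adjusted p = 0.00495). Ric8a, a chaperone of G protein alpha subunits, rose from 26.1 ± 7.59 to 51.6 ± 0.46 CPM. Of the 5 other Trpc genes, 4 were tested, with 2 higher and 1 lower after ONC (median -0.03). Trpc1 rose from 58.3 ± 2.42 to 93.3 ± 8.07 CPM. Trpc5, which rose from 20.2 ± 6.52 to 34.8 ± 1.78 CPM, had 0 UMIs in uninjured Opn4 cells and 22.2 ± 7.86 CPM in the other cells, and in injured samples 4.07 ± 4.82 against 37.5 ± 1.74 CPM.

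Of the 14 genes of G protein beta and gamma subunits, 13 were tested after ONC, with 4 higher and 4 lower (median -0.38). Gng5 rose from 10.9 ± 3.34 to 145 ± 8.12 CPM (log2 fold change 3.77, adjusted p = 1.60e-07), Gng4 fell from 80.2 ± 18.3 to 13.8 ± 2.24 CPM and Gng13 from 46.1 ± 21.0 to 2.16 ± 0.25 CPM. By class, 4 of 11 were higher in uninjured Opn4 cells, led by Gnb4 at 55.9 ± 22.3 against 2.29 ± 1.11 CPM. In injured samples Gng5 was lower in Opn4 cells, at 34.4 ± 16.3 against 156 ± 7.77 CPM, and Gng4 was higher, at 76.3 ± 4.93 against 11.7 ± 2.43 CPM. Of the 12 genes of receptor kinases, arrestins and regulators of G protein signalling, 1 was higher and 3 were lower after ONC (median -0.41). Rgs2, which speeds the switching off of Gq, fell from 50.2 ± 4.67 to 12.8 ± 1.54 CPM (log2 fold change -1.98, adjusted p = 7.93e-07), Grk3 fell from 39.1 ± 5.80 to 21.0 ± 2.64 CPM, and Rgs17 rose from 108 ± 8.31 to 143 ± 9.85 CPM. Rgs4 was higher in Opn4 cells in both conditions, at 417 ± 221 against 161 ± 67.0 CPM and at 602 ± 135 against 74.6 ± 14.9 CPM.

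Of 20 genes that handle diacylglycerol, IP3 and protein kinase C, 3 were higher and 7 lower after ONC (median -0.31). Itpr1, the IP3-gated calcium channel of the endoplasmic reticulum, fell from 119 ± 25.6 to 38.6 ± 4.02 CPM, Dgkb from 55.0 ± 13.1 to 12.5 ± 2.40 CPM, and Pip5k1b, which makes the lipid that phospholipase C splits, rose from 28.2 ± 4.16 to 176 ± 36.3 CPM (log2 fold change 2.64, adjusted p = 1.89e-07). In uninjured samples 7 of 18 were higher and 5 lower in Opn4 cells. The diacylglycerol kinase Dgkg was at 221 ± 88.3 against 7.80 ± 3.89 CPM and the protein kinase Prkcd at 147 ± 61.5 against 9.07 ± 1.96 CPM, and both remained higher in injured samples (130 ± 35.8 against 6.56 ± 2.64 CPM and 79.4 ± 30.1 against 10.2 ± 0.40 CPM). Of the 4 Hcn channel genes, Hcn2 fell from 26.8 ± 4.40 to 14.7 ± 3.22 CPM after ONC, and Hcn3 was higher in uninjured Opn4 cells at 28.9 ± 9.15 against 15.2 ± 2.06 CPM.

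Adcyap1 makes a precursor that is cut and amidated to PACAP, and 7 genes of this processing and of PACAP receptors were listed. After ONC 1 of 6 tested was higher and 4 were lower (median -0.74). Cpe, which trims cut peptides, rose from 470 to 1231 CPM (log2 fold change 1.39, SE 0.15, adjusted p = 1.68e-05), while the convertase Pcsk2 fell from 237 ± 37.4 to 113 ± 13.0 CPM and the receptor Vipr2 from 61.5 ± 10.2 to 12.9 ± 2.45 CPM. In uninjured Opn4 cells 4 of 6 were higher and 1 lower (median 1.06), among them Pcsk1 (130 ± 67.3 against 25.3 ± 6.48 CPM), Pcsk2 (428 ± 136 against 232 ± 34.6 CPM) and Pam, the amidating enzyme (688 ± 318 against 272 ± 45.9 CPM). In injured samples Pam (1168 ± 392 against 315 ± 19.7 CPM) and Pcsk2 (348 ± 58.6 against 108 ± 13.9 CPM) were higher in Opn4 cells and Cpe was lower (386 ± 101 against 1318 ± 42.4 CPM).

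The genes most like Opn4 were found by the correlation of their levels across the cells of a sample, averaged over the 9 samples and over 16722 genes, as a description in which cells share a library and its depth. Eomes came first (mean r = 0.80), followed by Trpc7 (0.74), the Ras activator Rasgrp1 (0.73), the protein kinase Prkcq (0.71), Gna14 (0.71), Gldn (0.68), Cd24a (0.64), Dmrtb1 (0.61), the T-box factor Tbx20 (0.60) and Ifitm10 (0.59). Adcyap1 stood at rank 15 (0.55), Trpc6 at 227 (0.23), Gnaq at 757 (0.12), Plcb4 at 1198 (0.09) and Gna11 at 3382 (0.04). The mean r of Gna14 with Opn4 was 0.85 in uninjured and 0.42 in injured samples, that of Trpc7 0.83 and 0.57, that of Adcyap1 0.64 and 0.38, and that of Eomes 0.84 and 0.72.

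Promoters of Opn4 and of Trpc7, Adcyap1 and Gna14, the 3 members with the largest log2 fold change between uninjured Opn4 and other cells, are shown because their levels moved together across cells. They were taken from RefSeq (GRCm38.p6), with 250 bases before and 50 bases after the start site, and all 8 genes had an entry. Capitals mark TCACAC, the half-site of T-box factors such as Eomes and Tbx20, on either strand (GTGTGA on the reverse), a motif with a match in 14.5% of 32851 promoters of the same length. The regions are chr14:34600093-34600392 (reverse strand) for Opn4, chr13:56895740-56896039 (reverse) for Trpc7, the first of 2 start sites at chr17:93198767-93199066 (forward) for Adcyap1 and chr19:16435417-16435716 (forward) for Gna14.
Opn4: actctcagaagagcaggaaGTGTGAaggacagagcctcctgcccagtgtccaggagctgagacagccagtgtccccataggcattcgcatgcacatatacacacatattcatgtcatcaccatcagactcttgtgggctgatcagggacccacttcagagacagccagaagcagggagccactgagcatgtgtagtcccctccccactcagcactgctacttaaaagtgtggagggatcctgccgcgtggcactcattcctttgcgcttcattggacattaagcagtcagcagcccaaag
Trpc7: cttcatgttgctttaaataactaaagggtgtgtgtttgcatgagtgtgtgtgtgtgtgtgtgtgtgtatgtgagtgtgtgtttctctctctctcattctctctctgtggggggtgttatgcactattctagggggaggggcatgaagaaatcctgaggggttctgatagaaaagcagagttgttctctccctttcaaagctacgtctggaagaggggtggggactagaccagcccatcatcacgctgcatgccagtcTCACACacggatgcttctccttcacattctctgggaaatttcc
Adcyap1: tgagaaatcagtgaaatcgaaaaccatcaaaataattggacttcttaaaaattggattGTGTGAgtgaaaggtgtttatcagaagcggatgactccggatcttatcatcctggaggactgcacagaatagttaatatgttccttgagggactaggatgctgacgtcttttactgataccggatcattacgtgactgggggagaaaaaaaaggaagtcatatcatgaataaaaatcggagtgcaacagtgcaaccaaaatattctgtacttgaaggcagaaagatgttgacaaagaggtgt
Gna14: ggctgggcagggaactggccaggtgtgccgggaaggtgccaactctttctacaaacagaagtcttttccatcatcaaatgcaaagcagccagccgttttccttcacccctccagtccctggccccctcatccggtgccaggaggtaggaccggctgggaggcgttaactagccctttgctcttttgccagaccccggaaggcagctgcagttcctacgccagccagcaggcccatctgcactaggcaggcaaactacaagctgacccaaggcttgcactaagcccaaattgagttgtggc
The motif was found once in the Opn4 promoter, 231 bases before the start on the reverse strand, once in that of Trpc7, 7 bases after the start, and once in that of Adcyap1, 192 bases before the start. It was not found in the windows of Gna14, Gnaq, Gna11, Plcb4 and Trpc6, nor at the second start of Adcyap1. A further 3 motifs were searched on both strands. TGACGTCA, the cAMP response element, is in 1.79% of promoters and in none of these windows. The interferon-stimulated response element is in 3.44% and was found in the first Adcyap1 window, without overlap with the T-box match. TTCNNNGAA, the interferon-gamma-activated site, is in 8.30% and was found in the Gnaq window. No match for either interferon motif lies in the Gna14 window. A match is a description of the letters in these windows, and the absence of one says nothing about sites elsewhere.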

How the data were processed

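The deposited files hold raw UMI counts per gene and cell, made by the authors from 10x scRNA-seq reads with Cell Ranger 7.0.1 and the mouse build mm39, per the submitters' processing notes. Read depth is known only as UMI counts. The files had been filtered by the authors on genes, UMIs and mitochondrial share per cell (the fewest genes in a cell were 821 and the highest mitochondrial share 19.8%), no further filter was set and no doublet caller was run, and the files of the injured group hold more barcodes than the injured cells the study counts. Counts were summed per sample, or per sample and class (Opn4 cells with at least 1 Opn4 UMI per 10000 UMIs, and other cells), and fitted with edgeR 4.0.16 (R 4.3.3) by the quasi-likelihood test with filterByExpr, TMM factors and Benjamini-Hochberg adjustment at 0.05 over all genes tested, with the sample as a block in the class comparison. Injured 3 and 4 were averaged. Single values were tested over samples with exact two-sided permutation or sign-flip tests (scipy 1.17.1), on log2(CPM + 1) for levels. DESeq2 1.42.0, limma 3.58.1, other scalings, filters, cell selections, cuts and the leaving out of each library were tried as alternatives, and the tests were tried on simulated data. Genes are named where they are members, the 3 with the largest called change per list at an average log2 CPM of at least 3, the 10 most like Opn4, or the 10 with the largest called rise in uninjured Opn4 cells at an average log2 CPM of at least 4. The Gna14 cells and their genes were chosen after their values were seen. Members and lists were chosen with earlier results of these data known. Some genes are not reported here.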

Additional observations from a re-analysis of the deposited data

Results flagged for a closer look

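The injury change of Gna14 differed between Opn4 cells and other cells, by -6.18 on the log2 scale (SE 0.46, adjusted p = 4.49e-10 with edgeR's interaction test), from -0.19 in Opn4 cells and 5.98 in other cells. The level of Gna14 in Opn4 cells overlapped between conditions, and that in other cells was higher in 3 of 3 injured samples than in any of the 6 uninjured ones. Other cells had no Gna14 UMI in uninjured 1, 2, 5 and 6, so the size of the difference depends on the prior count. The cause was not tested. No uninjured sample stood apart from the other 5 in any of the 33 sets of values looked at, where chance would mark about 1 set in 20. The check reads the gap between the lowest or highest value and its nearest neighbour. It therefore cannot find 2 libraries that deviate together, such as uninjured 5 and 6 for Trpc6 (18.6 and 15.9 CPM). The 3 injured samples are too few for this check.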

How the results depend on the processing

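Named values were recomputed under 834 alternatives in all, of which 738 kept their direction and side of the threshold, 45 lost the call, 27 gained one and 24 changed sign. Of the 8 genes, 3 changed after ONC in whole samples. This count was 5 with limma-voom and 5 with libraries 1 to 4 of each group as separate samples (Trpc6 and Trpc7 added in both), 1 (Adcyap1) with at least 10 counts in every library, where Gna14 was not tested, and 2 to 3 without single libraries, with Trpc6 in place of Gnaq without uninjured 6. Replicate numbers did not pair the samples (correlations of same-numbered deviations -0.059, 0.013, -0.036 and -0.062), and the fit with a replicate block over libraries 1 to 4 called 4 genes (Adcyap1, Gna14, Trpc6 and Trpc7). Both fits over libraries 1 to 4 counted injured 3 and 4, which share cell barcodes and are not independent, as separate samples. They also left out uninjured 5 and 6. The interaction called 1 gene, and 2 at a cut of 2 Opn4 UMIs per 10000, with DESeq2, with at least 10 cells per class and without a filter on low counts, and 1 to 2 without single libraries. The difference in the share of Opn4 cells, -0.87 percentage points, was 1.94 after thinning to 8000 UMIs and 1.10 in cells without markers of another class. It was 7.16 in cells with 3 to 5% Malat1 and -1.41 to 0.0538 without single libraries. After thinning, 1 Opn4 UMI puts a cell above the cut. Opn4 cells of the thinned setting, here and in the class values below, are therefore all cells with an Opn4 UMI. The 2 genes whose share of cells changed (Adcyap1 and Gna14) gave way to 4 others without thinning (Gna11, Opn4, Trpc6 and Trpc7) and to 1 other, Gnaq, in cells without markers of another class. After thinning to 5000 UMIs they were Adcyap1 and Gnaq (9.94 percentage points, exact permutation p = 0.0476), and Gna14 was lost (p = 0.0714). Without a single uninjured library or injured 3 or 4, 1 to 2 were called (Adcyap1 each time, Gna14 not without uninjured 2, 3, 4, 5 or 6). Without injured 1 or 2 neither was called, and 6 against 2 samples cannot go below 0.0714 (Adcyap1 0.0714 in both, Gna14 0.0714 and 0.143). Single log2 fold changes after ONC changed sign in cells without markers of another class (Opn4, 0.52), in cells with 3 to 5% Malat1 (Opn4 1.59, Trpc7 0.89, Gna11 0.039), with libraries 1 to 4 (Gna11 0.093) and with their replicate block (Gna11 0.067). The class difference of Gna11 changed sign in uninjured samples after thinning (-0.18), without a filter (-0.032) and without single libraries (-0.043 to 0.28), and in injured samples without injured 3 and 4 (-0.035). In Opn4 cells the injury change of Gna11 was 0.14 after thinning, 0.15 with at least 10 cells and -0.17 to 0.13 without single libraries, and that of Gna14 was -0.66 to 0.038 without single libraries. Without thinning the difference in the share of cells changed sign for Adcyap1 (-0.10), Gnaq (-1.44) and Plcb4 (-1.18). The causes were not tested. In cells without markers of another class too few Opn4 cells remained in uninjured samples, and the class comparison was run in injured samples alone, where 6 of 7 genes were higher in Opn4 cells against 4 as given. It was not run in cells with 3 to 5% Malat1, where 1 sample of each condition held enough Opn4 cells.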

Other observations

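Among the 10 genes with the largest rise in uninjured Opn4 cells were Cdkn1c, an inhibitor of the cell cycle, and Nppb, the precursor of a natriuretic peptide. Cdkn1c stood at a mean of 748 CPM in uninjured Opn4 cells and 1.82 CPM in other cells (log2 fold change 8.33, SE 0.89, adjusted p = 0.000415 with edgeR), and at 42.1 and 6.78 CPM in injured samples (adjusted p = 0.232). Nppb stood at 151 and 5.31 CPM in uninjured samples (log2 fold change 4.94, SE 0.33, adjusted p = 2.53e-07) and at 0.942 and 0.145 CPM in injured samples (adjusted p = 0.656). Cd24a, a surface glycoprotein, and Gldn, an extracellular protein of the olfactomedin family, had the largest log2 fold changes of these 10 genes, 9.44 (SE 0.46) and 9.11 (SE 0.34), and were also higher in injured Opn4 cells, at 155 against 16.2 CPM and 186 against 1.55 CPM. Rasgrp1 (231 against 3.29 CPM) and Prkcq (187 against 2.12 CPM) were likewise higher in uninjured Opn4 cells, and stood at 88.1 against 1.66 CPM and 130 against 2.48 CPM in injured ones.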
